A study of Mus musculus with 12 samples.

Results

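The genes described here encode the surface receptors that hold a cell to its matrix (integrins), the proteins that join it to its neighbours (cadherin-related proteins, claudins and nectins), the matrix itself (collagens, laminins and fibronectin) and the enzymes that cut or crosslink that matrix. They were chosen by gene name, and 47 of the 2600 genes listed in either of the 2 deposited tables carried such a name: 12 integrins, 12 junction proteins, 11 matrix proteins, 5 ADAM or ADAMTS genes and 7 MMP, TIMP or lysyl oxidase-like genes. RNA was sequenced from AML12 cells, a line of mouse hepatocytes derived from a mouse that carried a transforming growth factor alpha transgene, grown in medium with serum, dexamethasone and ITS. There were 4 groups of 3 libraries. Cells transfected with a GFP plasmid or with a GFP-DUSP6 plasmid were collected after 24 h, and cells transfected with a negative-control siRNA (NC) or with an siRNA against Dusp6 (siDUSP6) were collected after 48 h. DUSP6 is a phosphatase that switches off the kinase ERK, and the design asks which genes respond to more and to less of it. The labels do not say that the replicates were separate cultures, so that the tests weigh a difference against variation among libraries that may be technical only.

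An integrin is a pair of an alpha and a beta subunit, and the pair decides what it binds. Itga3 and Itga6 are subunits of laminin receptors, the latter with Itgb4 in hemidesmosomes, the rivets that fasten epithelial cells to a basement membrane. Itga1 and Itga2 pair with Itgb1 as collagen receptors, Itga5 pairs with Itgb1 as the fibronectin receptor, and Itgb3, Itgb5 and Itgb6 pair with the alpha-v subunit. In liver, hepatocytes face a loose matrix without a regular basement membrane and seal their bile canaliculi with claudins, whereas bile duct cells rest on laminin.

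A gene counts as called here if the authors' deposited table gives it an adjusted p under 0.05. Only genes with a p under 0.05 are listed in these tables, so members that are not listed were not analysed here, and being listed is no result. The levels below are normalized counts, which are read counts divided by a size factor for each library. The deposited counts were refitted with edgeR (quasi-likelihood test) to obtain fold changes with an SE. The reference annotation (GENCODE M21) holds 308 protein-coding genes with names of this kind, and these include genes that AML12 cells may not express. Summed over the listed genes, counts lay between 1303866 and 1531091 in the plasmid libraries and between 3500977 and 4078892 in the siRNA libraries, and these sums are not library depths. Dusp6 itself had 3935 ± 129 normalized counts in NC and 1783 ± 46.1 in siDUSP6, and 3352 ± 57.2 with GFP against 2354 ± 126 in the libraries labelled GFP-DUSP6 (SD, n = 3 each). It was thus lower in both contrasts. For the plasmid group this is the opposite of what its label says. The sources used here do not say whether transcripts of the plasmid were counted as Dusp6, so these counts may show the cells' own gene alone, and directions in that contrast are those of the libraries so labelled.

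In the libraries labelled GFP-DUSP6, 9 members were called, 5 higher and 4 lower, where 4.61% of all 12592 tested genes were called, 3.39% higher and 1.22% lower. These 9 are 2.92% of the 308 annotated genes with such names. How many of the 308 were tested is not known. Of the 31 annotated integrin genes 5 were called, 4 of them higher (Itgb3, Itgb6, Itga2 and Itga1) and Itga3 lower. The other members called were Adam8, which was higher, and Cldn6, Lamb3 and Nectin4, which were lower. In siDUSP6 libraries 38 members were called, 23 higher and 15 lower, where 15.0% of all 13102 tested genes were called, 7.76% higher and 7.19% lower. These 38 are 12.3% of the 308 annotated genes. Since the number of the 308 that were tested is not known, this share cannot be ranked against the 15.0% of all tested genes. The 38 were 12 of 31 annotated integrins (38.7%, 7 higher and 5 lower), 8 of 130 junction proteins (6.15%, 5 and 3) and 9 of 57 matrix proteins (15.8%, 6 and 3). The others were 4 of 58 ADAM or ADAMTS genes (6.9%, 3 and 1) and 5 of 32 genes of the MMP, TIMP and lysyl oxidase group (15.6%, 2 and 3). The median absolute log2 fold change of the called members in the authors' deposited table was 0.49 for the plasmid and 0.53 for the siRNA, against 0.39 and 0.43 for all called genes. In each of these calls the 3 libraries of the treated group lay wholly above or wholly below their 3 controls, as in 99.7% of all genes called in the plasmid contrast and 98.8% of those called with the siRNA, so this is nothing particular to the members. With a threshold of 0.01 the authors' deposited tables call 6 and 28 members, where 2.85% and 9.52% of all tested genes were called. The refit passed 8 and 35 members, where 4.20% and 12.3% of all tested genes passed. Scaling over the listed genes (TMM), in which selected genes set the zero, shifted all log2 fold changes by a median of -0.32 for the plasmid and -0.06 for the siRNA; 1 member higher and 4 lower then passed the plasmid refit, against 5 and 3, and 14 higher and 15 lower the siRNA refit, against 21 and 14.

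**Figure D1:**
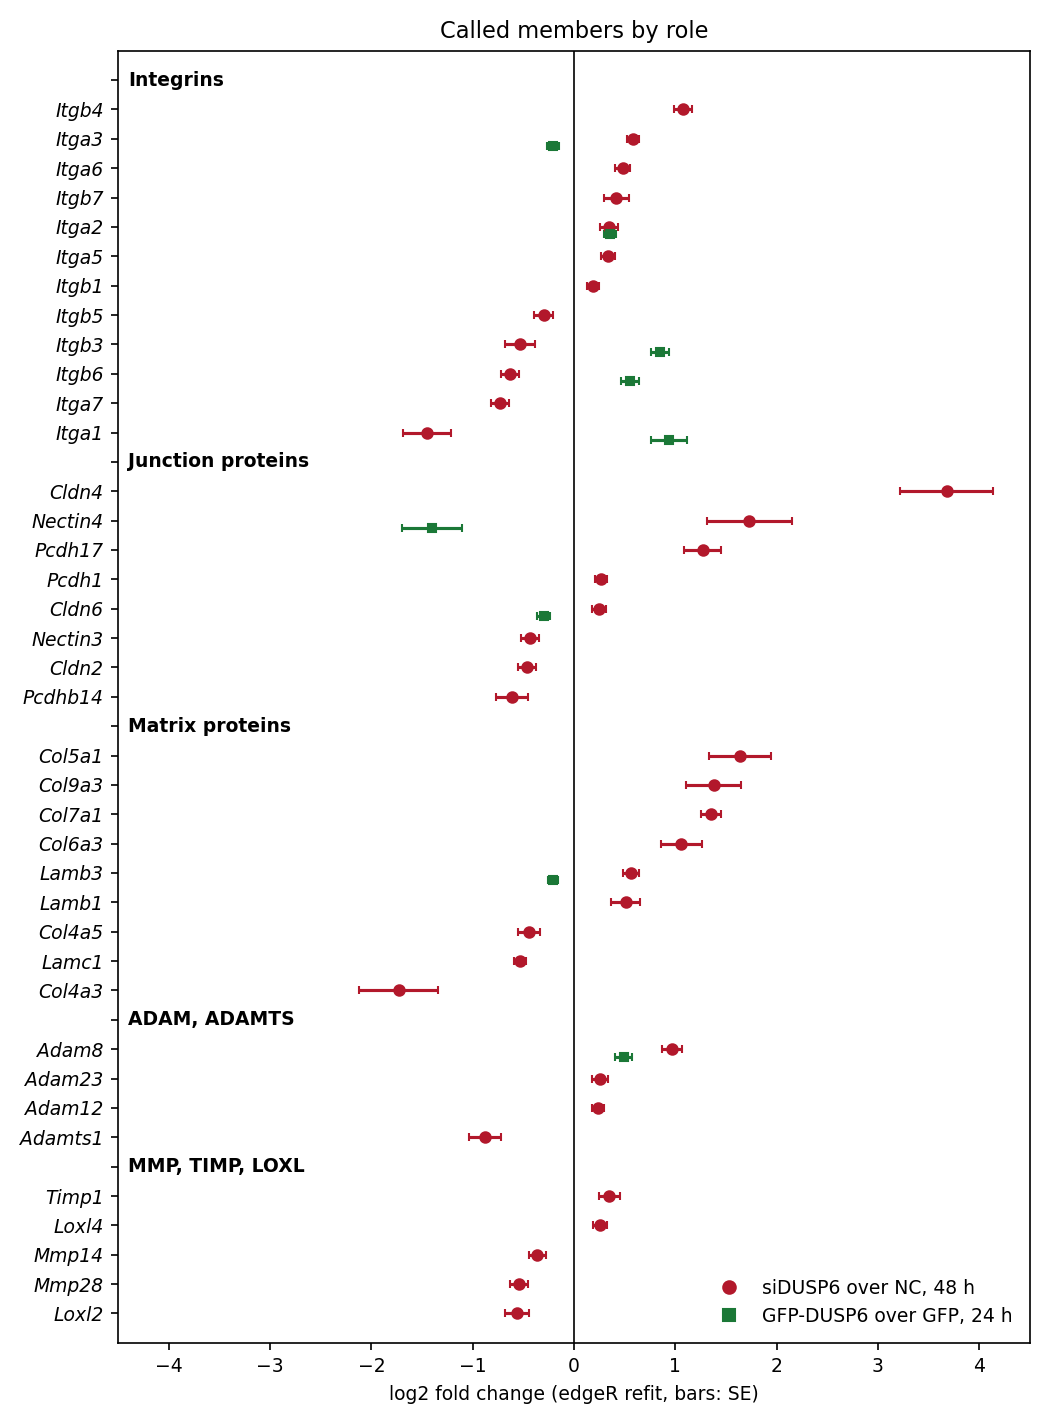
Log2 fold changes of the 38 members called with siDUSP6 (circles, siDUSP6 over NC) and of the 9 called in the libraries labelled GFP-DUSP6 (squares, over GFP), ordered by role; bars are the SE of the edgeR refit, n = 3 libraries a group. Most changes are smaller than 1 on the log2 scale, and Cldn4 lies farthest from 0.

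All 9 members called in the plasmid contrast were also called in the siRNA contrast, as were 43.1% of all genes called in the plasmid contrast (250 genes, 1.99% of those tested). Of these 9, 7 had opposite directions in the 2 contrasts (77.8%), close to the 73.2% among all 250 genes called in both. Itgb3, Itgb6 and Itga1 were higher in the libraries labelled GFP-DUSP6 and lower with siDUSP6. Itga3, Lamb3, Cldn6 and Nectin4 were lower in the former and higher in the latter. Itga2 and Adam8 were higher in both. The contrasts share no library, they differ in time and in the nucleic acid delivered, and the difference between them was not tested.

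**Figure D2:**
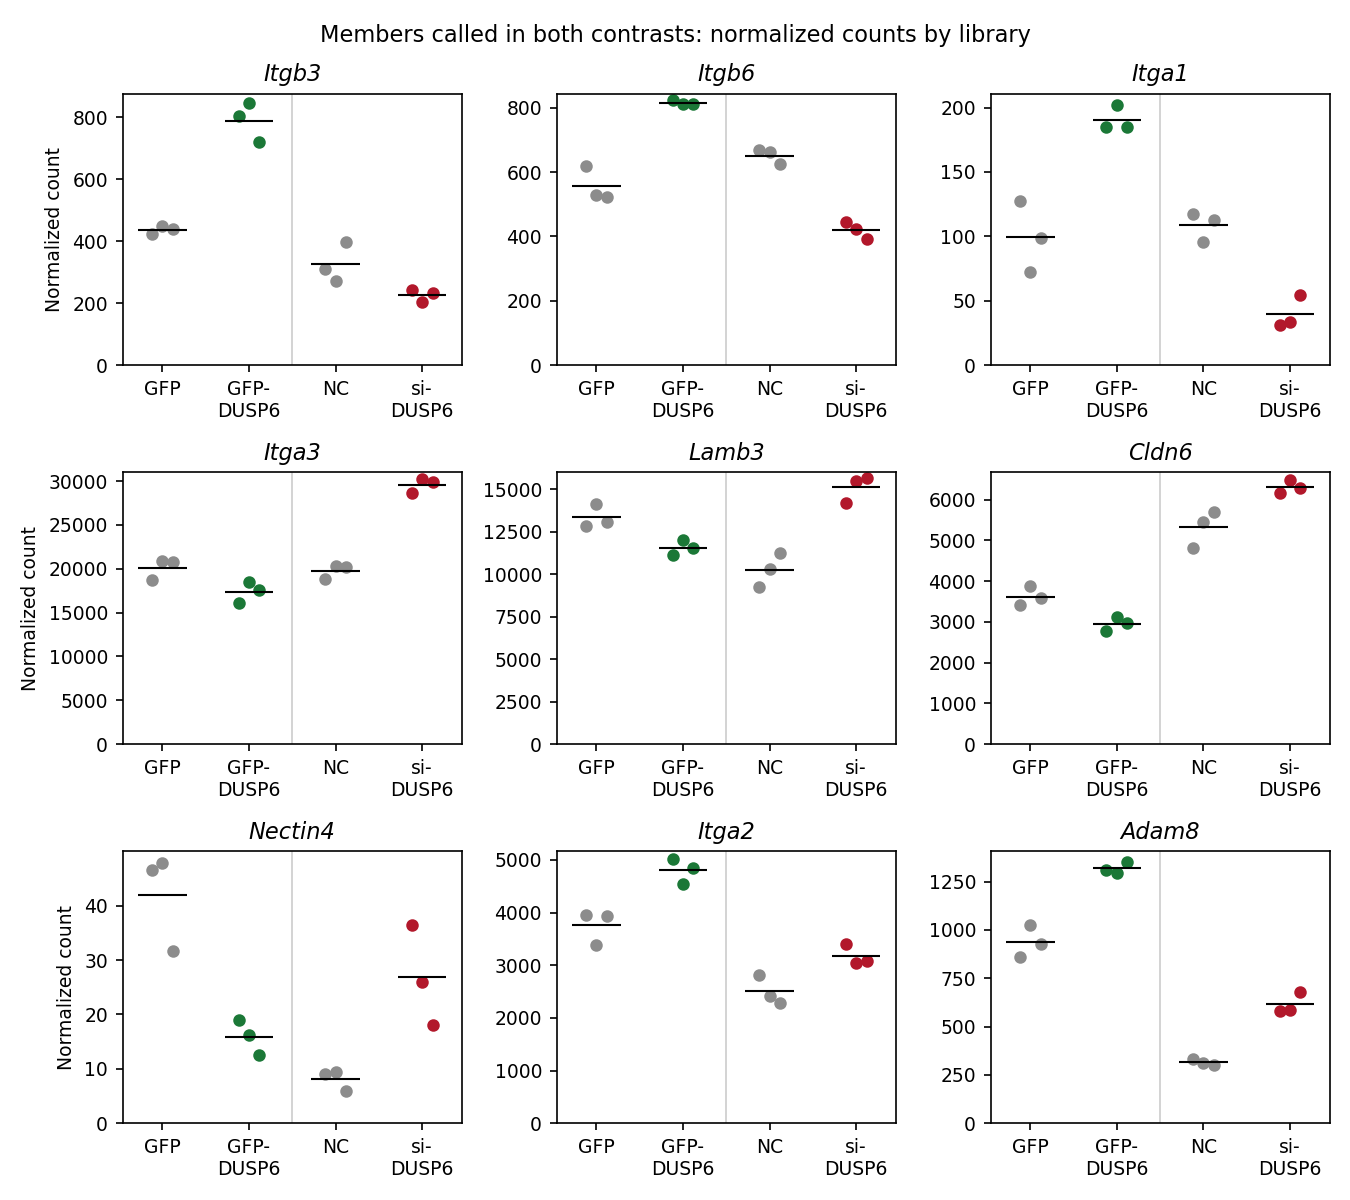
Normalized counts in each library (points) of the 9 members called in both contrasts, with the mean of each group as a line; each vertical axis starts at 0. For Itgb3, Itgb6 and Itga1 the GFP-DUSP6 points lie above GFP and the siDUSP6 points below NC, for Itga3, Lamb3, Cldn6 and Nectin4 the reverse holds, and for Itga2 and Adam8 both treated groups lie above their controls.

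Itgb6, the epithelial beta subunit that helps release transforming growth factor beta from its latent complex (chromosome 2, 60598292 to 60722643, minus strand, mm10), had 620, 530 and 523 normalized counts with GFP and 823, 812 and 813 in the libraries labelled GFP-DUSP6. It had 668, 662 and 624 in NC and 444, 422 and 393 in siDUSP6. The log2 fold changes were 0.55 ± 0.09 and -0.63 ± 0.09 (SE), with adjusted p of 1.05e-05 and 3.37e-07 in the authors' deposited table (DESeq2). Treated and control libraries did not overlap in either contrast.

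Itga1, a collagen receptor subunit (chromosome 13, 114953096 to 115101964, minus strand), had 127, 72.4 and 99 normalized counts with GFP and 185, 202 and 185 in the GFP-DUSP6 libraries. With NC it had 117, 95.7 and 112, and with siDUSP6 31.5, 33.7 and 54.1. Its log2 fold changes, 0.94 ± 0.18 and -1.45 ± 0.24 (SE), were the largest of the integrins in each contrast, on the lowest counts of any called integrin. The authors' deposited table gives adjusted p of 8.59e-04 and 1.19e-05.

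Itgb3, which pairs with the alpha-v subunit to bind vitronectin and fibronectin (chromosome 11, 104608000 to 104670476, plus strand), had 423, 448 and 440 normalized counts with GFP and 803, 845 and 721 in the GFP-DUSP6 libraries, a log2 fold change of 0.85 ± 0.09 (SE; adjusted p = 6.63e-13, authors' deposited table). In the siRNA contrast the spread was wider, with 311, 271 and 397 in NC and 243, 205 and 231 in siDUSP6, and the log2 fold change was -0.53 ± 0.15 (adjusted p = 0.0179, authors' deposited table). NC replicate 3 was the highest library there: without it the log2 fold change was -0.36 and the refit did not pass (adjusted p = 0.158). The refit also did not pass without siDUSP6 replicate 1 (0.064), 2 (0.203) or 3 (0.113).

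Itga3, the alpha subunit of a laminin receptor with Itgb1 (chromosome 11, 95044474 to 95076801, minus strand), was the most abundant member in raw counts. It had 18797, 20284 and 20238 normalized counts in NC and 28660, 30271 and 29842 in siDUSP6, a log2 fold change of 0.58 ± 0.06 (SE; adjusted p = 5.67e-18, authors' deposited table). With GFP it had 18715, 20897 and 20818, and in the GFP-DUSP6 libraries 16084, 18479 and 17578, a difference of -0.21 ± 0.06 (adjusted p = 0.0227, authors' deposited table). Lamb3, which encodes a chain of the laminin that Itga3 and Itga6 bind (chromosome 1, 193207699 to 193343878, plus strand), had nearly the same fold changes. Its normalized counts were 9245, 10296 and 11250 in NC against 14201, 15508 and 15667 in siDUSP6, a log2 fold change of 0.56 ± 0.08 (SE; adjusted p = 2.96e-09, authors' deposited table). It had 12850, 14145 and 13063 with GFP against 11131, 12039 and 11520 in the GFP-DUSP6 libraries, a difference of -0.21 ± 0.05 (adjusted p = 0.012, authors' deposited table). The falls of both genes in the plasmid contrast were small: in the refit Itga3 did not pass (adjusted p = 0.0798) and Lamb3 did (0.0404). Without GFP replicate 2 or 3, or without any GFP-DUSP6 replicate, neither passed (adjusted p up to 0.649 and 0.271). With the replicate number as a block in the refit, both passed (adjusted p = 1.33e-05 and 2.55e-05). Same-numbered libraries deviated together only in part, so they were not taken as pairs.

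Cldn6, a claudin of embryonic epithelia, had 3417, 3879 and 3577 normalized counts with GFP and 2773, 3118 and 2968 in the GFP-DUSP6 libraries, and 4820, 5465 and 5692 in NC against 6171, 6483 and 6294 in siDUSP6. The log2 fold changes were -0.30 ± 0.06 and 0.25 ± 0.07 (SE), with adjusted p of 0.00155 and 0.017 in the authors' deposited table. Nectin4, an adhesion molecule of adherens junctions, was scarce, with 46.5, 47.9 and 31.7 normalized counts with GFP and 18.9, 16.2 and 12.6 in the GFP-DUSP6 libraries. With NC it had 9.03, 9.46 and 5.87 and with siDUSP6 36.4, 26 and 18. The log2 fold changes were -1.40 ± 0.30 and 1.73 ± 0.42 (SE), and the adjusted p in the authors' deposited table were 0.0348 and 0.0184. In the refit Cldn6 did not pass without GFP-DUSP6 replicate 1 or 3 (adjusted p = 0.0611 and 0.0891), and Nectin4 without GFP-DUSP6 replicate 2 or 3 (0.0693 and 0.0958). In the siRNA contrast Cldn6 passed in 1 of the 6 refits that left out a library, the one without NC replicate 3, and Nectin4 in 2 of 6, those without NC replicate 1 and without siDUSP6 replicate 3.

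Adam8, a membrane metalloprotease that sheds surface proteins, was higher in both contrasts. It had 860, 1028 and 927 normalized counts with GFP and 1309, 1294 and 1353 in the GFP-DUSP6 libraries, and 331, 313 and 299 in NC against 580, 588 and 677 in siDUSP6. The log2 fold changes were 0.49 ± 0.08 and 0.97 ± 0.10 (SE; adjusted p = 3.82e-06 and 2.56e-13, authors' deposited table). Itga2, a collagen receptor subunit, had 3950, 3387 and 3926 with GFP and 5022, 4543 and 4851 in the GFP-DUSP6 libraries, and 2813, 2414 and 2284 in NC against 3411, 3051 and 3088 in siDUSP6. Its log2 fold changes were 0.36 ± 0.06 and 0.35 ± 0.09 (SE; adjusted p = 5.17e-05 and 0.00354, authors' deposited table). Itga2 passed the refit with all libraries in both contrasts. It missed the threshold in the plasmid contrast without GFP-DUSP6 replicate 3 (adjusted p = 0.053), and of the 6 siRNA refits that left out a library it passed the one without NC replicate 1 (0.000984), with adjusted p up to 0.102 in the other 5. Under TMM over the listed genes none of the 9 members changed sign, but the plasmid log2 fold change of Itga2 was then 0.04, that of Adam8 0.18, that of Itgb6 0.23 and that of Itga1 0.62, and these 4 did not pass. In the siRNA contrast Itga2 (0.29, adjusted p = 0.0685) and Cldn6 (0.19, adjusted p = 0.116) did not pass under this scaling either.

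**Figure D3:**
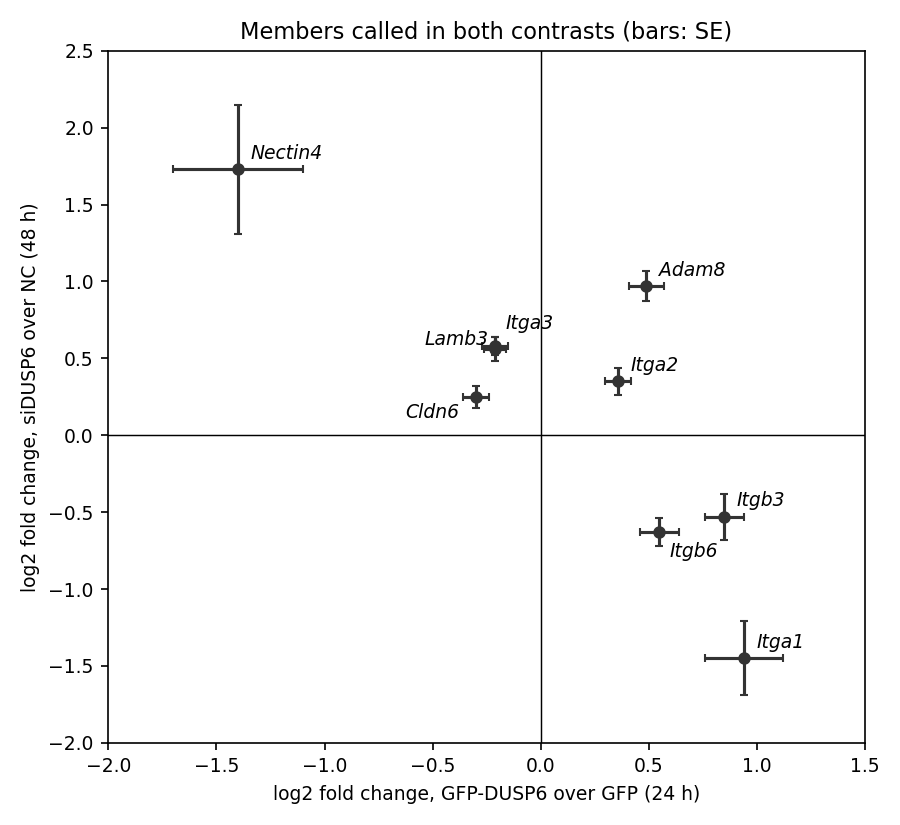
Log2 fold changes of the 9 members called in both contrasts, GFP-DUSP6 over GFP on the horizontal and siDUSP6 over NC on the vertical axis; bars are SE of the edgeR refit, n = 3 libraries a group. Itga3 and Lamb3 nearly coincide at -0.21 and 0.58 or 0.56, and Nectin4 and Itga1 lie farthest from the origin in opposite quadrants.

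The fold changes of Itga3 and Lamb3 nearly coincide in both contrasts, Itgb6 went the other way, and Cldn4 had the largest rise of the called members. For these 4 members, chosen on those values, the stretch before the start of the gene is shown. Each is the 250 bases before the first annotated start, 5′ to 3′ along the gene (RefSeq, GRCm38.p6): chr11:95076715-95076964 on the minus strand, chr1:193301744-193301993 on the plus strand, chr2:60722604-60722853 on the minus strand and chr5:134946935-134947184 on the minus strand. The Lamb3 stretch lies inside the span that GENCODE gives for the gene, those of Itga3 and Itgb6 overlap the spans of their genes in part, and which start AML12 cells use was not analysed here. Capitals mark matches on either strand to TGANTCA (the AP-1 motif), CCGGAA (the core of ETS motifs) and GGGCGG (the GC box).
Itga3: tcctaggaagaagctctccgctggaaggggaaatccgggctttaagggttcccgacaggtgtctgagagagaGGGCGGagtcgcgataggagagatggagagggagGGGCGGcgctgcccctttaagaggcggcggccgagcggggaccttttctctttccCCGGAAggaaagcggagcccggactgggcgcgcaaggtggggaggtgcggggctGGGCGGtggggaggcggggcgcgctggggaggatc
Lamb3: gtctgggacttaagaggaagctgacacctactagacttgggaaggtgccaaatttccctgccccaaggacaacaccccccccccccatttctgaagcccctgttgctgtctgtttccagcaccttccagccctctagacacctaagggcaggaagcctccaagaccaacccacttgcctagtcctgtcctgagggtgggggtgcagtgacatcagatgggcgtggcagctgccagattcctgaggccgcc
Itgb6: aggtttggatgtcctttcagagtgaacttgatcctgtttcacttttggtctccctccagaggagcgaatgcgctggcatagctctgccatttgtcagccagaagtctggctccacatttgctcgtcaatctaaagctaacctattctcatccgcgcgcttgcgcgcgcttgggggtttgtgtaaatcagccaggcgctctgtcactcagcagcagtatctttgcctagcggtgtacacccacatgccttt
Cldn4: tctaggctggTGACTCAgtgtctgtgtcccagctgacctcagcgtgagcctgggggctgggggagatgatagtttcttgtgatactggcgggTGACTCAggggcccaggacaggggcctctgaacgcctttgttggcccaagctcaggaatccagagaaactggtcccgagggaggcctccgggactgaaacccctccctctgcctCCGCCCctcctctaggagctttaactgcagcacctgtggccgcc
The Cldn4 stretch holds 2 AP-1 motifs and 1 GC box, that of Itga3 holds 1 ETS core and 3 GC boxes, and those of Lamb3 and Itgb6 hold no match. Among 32817 such stretches 6.75% hold the AP-1 motif, 12% the ETS core and 32.7% the GC box. Of the 38 called members 27 had an entry, and 1 of these held the AP-1 motif (Cldn4), 1 the ETS core (Itga3) and 18 the GC box. The GC box was found in 12 of the 18 with an entry that were higher with siDUSP6 and in 6 of the 9 that were lower. A match describes these letters and is no sign that a factor binds there.

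With siDUSP6, Itga2, Itga3, Itga5, Itga6, Itgb1, Itgb4 and Itgb7 were higher, and Itga1, Itga7, Itgb3, Itgb5 and Itgb6 were lower. Itgb4, the beta subunit of hemidesmosomes (chromosome 11, 115974709 to 116008412, plus strand), had 1030, 1236 and 1302 normalized counts in NC and 2361, 2567 and 2600 in siDUSP6. Its log2 fold change of 1.08 ± 0.09 (SE; adjusted p = 1.11e-24, authors' deposited table) was the largest rise of an integrin, and it lay between 0.98 and 1.15 without single libraries. An antisense gene overlaps 7.66% of its exon bases, and the sources used here do not say whether counting used strand.

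Itga6, the partner of Itgb4, rose by 0.48 ± 0.07 on the log2 scale, from 3001 ± 229 to 4172 ± 189 normalized counts (SD, n = 3). Itga5, of the fibronectin receptor, rose by 0.34 ± 0.07 and Itgb7, a subunit best known from lymphocytes, by 0.42 ± 0.12. Itgb1, the common partner of Itga1, Itga2, Itga3, Itga5 and Itga7, had 11797, 10862 and 10623 normalized counts in NC and 12976, 12622 and 12436 in siDUSP6, a log2 fold change of 0.19 ± 0.06 (adjusted p = 0.032, authors' deposited table). Itga7, also a laminin receptor subunit, went the other way from Itga3 and Itga6. It had 1162, 1349 and 1455 normalized counts in NC and 772, 806 and 805 in siDUSP6, a log2 fold change of -0.73 ± 0.09 (SE; adjusted p = 1.32e-10, authors' deposited table). Itgb5 had 1589 ± 150 normalized counts in NC and 1292 ± 89.2 in siDUSP6 (SD, n = 3), a log2 fold change of -0.30 ± 0.09.

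In the refit with all libraries, Itgb1 and Itgb5 did not pass (adjusted p = 0.0766 and 0.0533). Without single libraries Itgb4, Itga3, Itga7, Itgb6, Itga6 and Itga1 passed in each of 6 refits and Itga5 in 5, all but the one without siDUSP6 replicate 2 (0.0566). Itgb7 passed in the refit without NC replicate 2 alone, and Itgb1 and Itgb5 in the refit without NC replicate 1 alone, with adjusted p up to 0.142, 0.3 and 0.256 in the others.

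Set per kilobase of exon, the called integrins spanned a wide range in NC. Itga3 stood at 3463 ± 148 normalized counts per kb and Itgb1 at 2718 ± 152 (SD, n = 3), well above the next, Itgb5 at 447 ± 42.1. Itga5 at 367 ± 20.3, Itga2 at 351 ± 38.6 and Itga6 at 332 ± 25.4 overlapped and could not be ranked. Itgb4 stood at 170 ± 20.2, Itga7 at 163 ± 18.3 and Itgb7 at 133 ± 19.1, and these 3 overlapped too, followed by Itgb6 at 91.6 ± 3.39, Itgb3 at 55.3 ± 10.9 and Itga1 at 5.83 ± 0.61. In siDUSP6 libraries Itgb4 stood at 358 per kb and Itgb5 at 364. Exon lengths come from GENCODE M21 and may differ from those used for counting.

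**Figure D4:**
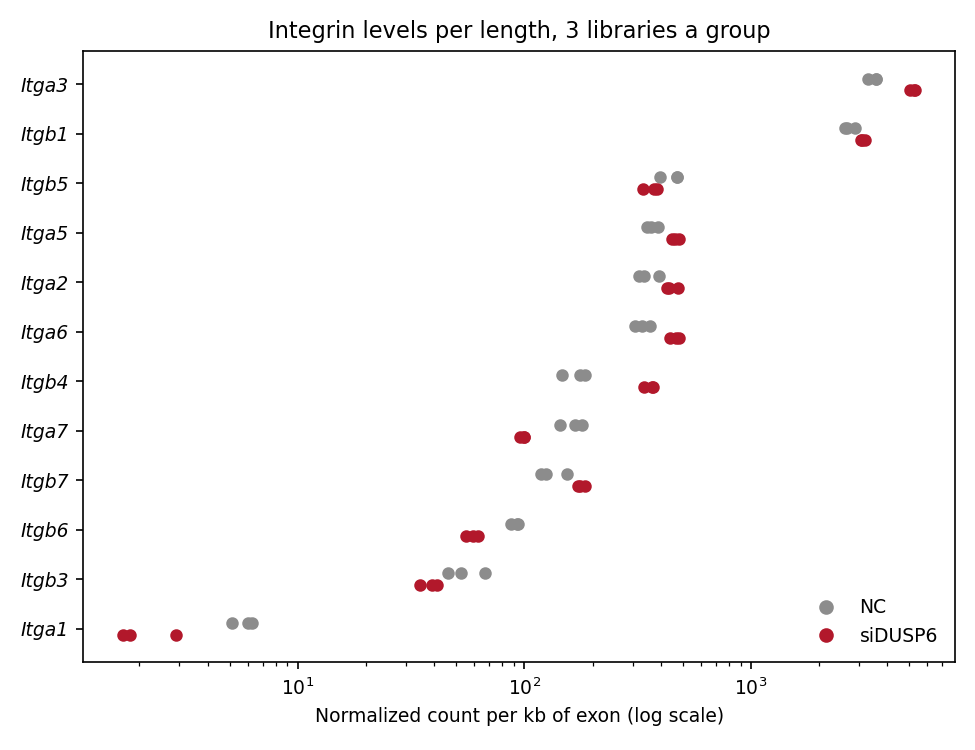
Normalized counts per kb of exon in each library (points) of the 12 integrin genes called with siDUSP6, in NC and siDUSP6, on a log axis. Itga3 and Itgb1 lie highest and Itga1 lowest, and Itgb4 moves from 170 in NC to 358 in siDUSP6.

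Among matrix proteins, collagens rose and fell by chain. Col7a1, the collagen of the anchoring fibrils beneath hemidesmosomes (chromosome 9, 108953586 to 108984875, plus strand), had 307, 320 and 317 normalized counts in NC and 774, 754 and 879 in siDUSP6. Its log2 fold change was 1.35 ± 0.10 (SE; adjusted p = 1.12e-29, authors' deposited table), the smallest adjusted p of any member. Col17a1, the transmembrane collagen of hemidesmosomes, was listed but not called, with 4 counts in the NC libraries together and 22 in siDUSP6.

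Col9a3, a chain of a cartilage collagen, had 34.1, 81 and 40.1 normalized counts in NC and 133, 133 and 137 in siDUSP6, a log2 fold change of 1.38 ± 0.27. Col6a3, of beaded filaments, rose by 1.06 ± 0.20 and Col5a1, of fibrils, by 1.64 ± 0.31, the last from 12.2 ± 2.48 to 37.7 ± 3.95 normalized counts (SD, n = 3). Col4a3 and Col4a5, chains of the same basement membrane network, had log2 fold changes of -1.73 ± 0.39 and -0.44 ± 0.11. Col4a3 was at 34.7 ± 11.9 normalized counts in NC and 10.5 ± 3.2 in siDUSP6, and Col4a5 at 522 ± 43.7 and 385 ± 33.7 (SD, n = 3).

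Of the laminin chains, Lamc1, the gamma chain of most laminins, had 4348, 4084 and 4372 normalized counts in NC and 2919, 2967 and 2964 in siDUSP6, a log2 fold change of -0.53 ± 0.06 (SE; adjusted p = 2.24e-13, authors' deposited table). Lamb1, a beta chain that joins it, rose by 0.51 ± 0.14. The called laminin chains thus differed in direction, with Lamb3 and Lamb1 higher and Lamc1 lower. In the refits without single libraries Col7a1, Lamc1, Lamb3, Col9a3, Col6a3 and Col5a1 passed in all 6. Col4a3 did not pass without NC replicate 3 (0.0612) or siDUSP6 replicate 2 (0.0525), Col4a5 without NC replicate 2 or 3 or siDUSP6 replicate 1 or 2 (0.0654 to 0.132), and Lamb1 passed without NC replicate 3 alone.

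Claudins seal the space between epithelial cells, and each sets which ions pass. Cldn4, a barrier claudin (chromosome 5, 134945119 to 134946934, minus strand), was nearly silent in NC with 2.01, 1.05 and 7.82 normalized counts, and had 45.3, 51 and 46.1 in siDUSP6. The log2 fold change was 3.68 ± 0.46 (SE; adjusted p = 4.93e-08, authors' deposited table), and since it rests on 11 NC reads in all, it ranged from 3.26 to 4.95 without single libraries, the latter without NC replicate 3. Cldn2, which forms pores for cations and water, had 3446, 3459 and 4316 in NC and 2801, 2738 and 2641 in siDUSP6, a log2 fold change of -0.46 ± 0.09 (SE; adjusted p = 7.60e-05, authors' deposited table). Per kb Cldn2 remained far above Cldn4, at 820 against 26.1 normalized counts per kb in siDUSP6.

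Pcdh17, a protocadherin best known from brain, had 180, 128 and 170 normalized counts in NC and 481, 350 and 321 in siDUSP6, a log2 fold change of 1.27 ± 0.18 (SE; adjusted p = 3.21e-09, authors' deposited table). Pcdh1, a protocadherin of airway epithelium, rose by 0.27 ± 0.06. Nectin3 and Pcdhb14 had log2 fold changes of -0.43 ± 0.09 and -0.61 ± 0.16. In refits without single libraries Cldn4, Cldn2 and Pcdh17 passed in all 6, Nectin3 not without siDUSP6 replicate 2 (0.054) or 3 (0.0511), Pcdh1 not without NC replicate 2 or siDUSP6 replicate 2 or 3 (0.078 to 0.0979), and Pcdhb14 not without NC replicate 1 or 3 or siDUSP6 replicate 2 or 3 (0.0624 to 0.138).

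Of the called ADAM, ADAMTS and MMP genes, Adamts1, Mmp14 and Mmp28 were lower with siDUSP6, whereas Adam8, Adam12 and Adam23 were higher. Adamts1, which cleaves proteoglycans such as versican, had 790, 721 and 1146 normalized counts in NC and 465, 440 and 536 in siDUSP6, a log2 fold change of -0.88 ± 0.16 (SE; adjusted p = 2.31e-06, authors' deposited table). Without NC replicate 3, the highest, it was -0.65 and passed the refit. Mmp28, a secreted metalloprotease, had 532, 533 and 536 in NC and 384, 361 and 360 in siDUSP6, a log2 fold change of -0.54 ± 0.09 (adjusted p = 4.63e-05, authors' deposited table). A gene on the other strand overlaps 12% of its exon bases.

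Mmp14, a membrane-bound collagenase that activates other metalloproteases, had 2953, 3143 and 3545 in NC and 2390, 2490 and 2650 in siDUSP6, a log2 fold change of -0.36 ± 0.08 (adjusted p = 0.00106, authors' deposited table). Timp1, an inhibitor of metalloproteases, had 339, 369 and 353 in NC and 460, 469 and 421 in siDUSP6, a log2 fold change of 0.35 ± 0.10 (adjusted p = 0.0308, authors' deposited table). Loxl2 and Loxl4 belong to the oxidases that crosslink collagen, and they differed in direction. Loxl2 had 751, 748 and 993 in NC and 502, 579 and 610 in siDUSP6, a log2 fold change of -0.56 ± 0.12, and Loxl4 rose by 0.26 ± 0.07. Loxl2 shares 45% of its 50-base words with another annotated gene, so its counts are uncertain.

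Adam12, a metalloprotease, had 2928, 2727 and 2820 in NC and 3353, 3297 and 3376 in siDUSP6, a log2 fold change of 0.24 ± 0.06 (adjusted p = 0.0048, authors' deposited table). Adam23, which lacks protease activity, rose by 0.26 ± 0.08 in the authors' call and did not pass the refit (adjusted p = 0.0513). In refits without single libraries Mmp28, Loxl2, Adamts1 and Adam8 passed in all 6, Mmp14 not without siDUSP6 replicate 1 or 2 (0.0525 and 0.0766) and Loxl4 not without NC replicate 2 or siDUSP6 replicate 2 or 3 (0.0784 to 0.161). Adam12 passed without NC replicate 1 alone, Adam23 without NC replicate 3 alone, and Timp1 in none (0.082 to 0.236). Of the 15 members lower with siDUSP6, NC replicate 3 was the highest NC library for 10. Among the 23 higher members it was the highest NC library for 9 and the lowest for 8. The same count over all called genes was not made, so this may be nothing particular to the members.

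The remaining 9 listed members had no adjusted p and few reads. In the plasmid table these were Pcdha9 (0 counts with GFP, 11 with GFP-DUSP6), Mmp12 (9 and 44), Col23a1 (19 and 3) and Cldn7 (13 and 0), summed over 3 libraries. In the siRNA table they were Loxl1 (3 counts in NC and 29 in siDUSP6), Pcdhgc4 (3 and 24), Pcdhga4 (4 and 25), Adam3 (2 and 19) and Col17a1. Most 50-base words of Pcdha9 (57.9%) and Pcdhga4 (65.3%), and 37.1% of those of Pcdhgc4, also occur in another gene, so their reads cannot be assigned with certainty.

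Proteins that work beside these members were followed in 5 further lists, from which members by name were left out. The lists were chosen with earlier results of these data known, so their shares describe the lists and are no test. Of 26 focal adhesion genes, which tie integrins to actin, 9 were higher and 1 lower with siDUSP6 (38.5% called, against 15.0% of all tested genes). Src, a kinase, rose by 0.53 ± 0.08 on the log2 scale and Parvb, which links integrins to actin, by 0.63 ± 0.11, while Nedd9, a scaffold, had a log2 fold change of -0.55 ± 0.16. In the plasmid contrast Fermt1, an integrin activator, rose by 0.58 ± 0.08 and Tns3 by 0.29 ± 0.05, and these were the 2 of 26 called (7.69%, against 4.61% of all tested genes). Of 32 junction plaque and channel genes 7 were higher and 1, Tjp1 (-0.23 ± 0.07), lower with siDUSP6 (25% called, and 6.25% in the plasmid contrast). Cgn, of tight junctions, rose by 0.46 ± 0.08. Cgn rose by 0.38 ± 0.07 in the GFP-DUSP6 libraries too, where Ctnnb1 was the other gene called, higher by 0.29 ± 0.05.

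Of 45 matrix glycoprotein and proteoglycan genes 6 were higher and 9 lower with siDUSP6, and 1 higher and 3 lower with GFP-DUSP6 (33.3% and 8.89% called, against 15.0% and 4.61% of all tested genes). Efemp1 and Ccn4 had log2 fold changes of -0.78 ± 0.07 and -0.87 ± 0.10 with siDUSP6, while Ecm1 rose by 0.79 ± 0.12 and Agrn, agrin of basement membranes, by 0.54 ± 0.09. Chosen after their values were seen, Spp1, Fbln2 and Ltbp3 were called in both contrasts with opposite directions: Spp1 was at 0.57 ± 0.08 in the plasmid and -0.53 ± 0.08 in the siRNA contrast, Fbln2 at -0.26 ± 0.07 and 0.38 ± 0.08, and Ltbp3 at -0.22 ± 0.06 and 0.55 ± 0.09. Ccn2, a matricellular protein, was at -0.36 ± 0.06 in the plasmid contrast. Of 20 genes listed under collagen processing 4 were higher and 2 lower with siDUSP6 (30% called, against 15.0% of all tested genes). Among them were Plat at 0.57 ± 0.12, Plod3 at 0.39 ± 0.09, Pcolce at -0.33 ± 0.08 and Tgm2 at -0.45 ± 0.13. Plat is a protease and is counted in the next list too. With GFP-DUSP6 1 gene, Colgalt1, was higher by 0.21 ± 0.06 (5% called, near the 4.61% of all tested genes). Of 28 other proteases, inhibitors and hyaluronan genes 9 were higher and 0 lower with siDUSP6 (32.1% called), with the smallest adjusted p in the authors' deposited table for Spint2 at 0.39 ± 0.08 and Plat, and 1 was higher and 3 lower with GFP-DUSP6 (14.3% called), where Serpine2 was at 0.43 ± 0.05 and Htra3 at -0.33 ± 0.07 (log2 fold changes ± SE).

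Markers of cell types moved beside these members, and their counts stand against the 15.0% (siDUSP6) and 4.61% (GFP-DUSP6) of all tested genes called. Of 12 hepatocyte markers Alb (-1.98 ± 0.16), Ttr, Apoa1, Trf and Hnf4a were called lower with siDUSP6, and the summed level of these 5 was 4559 to 5747 normalized counts in NC and 3303 to 3598 in siDUSP6. With GFP-DUSP6, Apob was called higher (754 to 974 against 1064 to 1160). Of 10 biliary markers Sox9 was higher (0.78 ± 0.08) and Spp1 and Anxa13 lower with siDUSP6. The summed level of these 3 was 2564 to 3037 in NC and 2675 to 2806 in siDUSP6. With GFP-DUSP6, Spp1 was higher and Krt19 and Sox9 were lower, and the sum of these 3 was 38697 to 41222 with GFP and 31284 to 31714 with GFP-DUSP6. Most of that sum was Krt19 (37744 ± 1396 with GFP, SD), which was not listed in the siRNA contrast, so the sums of the contrasts are of different genes. No stellate marker was listed. Of 10 endothelial markers Stab1 was called higher with GFP-DUSP6 (112 to 141 summed normalized counts against 271 to 283), and of 10 macrophage markers Cd14 was higher with GFP-DUSP6 (1770 to 1849 against 2510 to 2759) and lower with siDUSP6 (1761 to 1826 against 1122 to 1409). The levels of markers that are not listed were not analysed here. The part of these markers in the results above was not tested. Each contrast compared an siRNA or plasmid group with its control group alone, so effects of Dusp6 and other effects of that reagent cannot be told apart.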

How the data were processed

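RNA-seq libraries of AML12 cells (12 libraries, 4 groups of 3) were grouped by their titles. The authors deposited, per the file headers, whole-number counts for each library, with the log2 fold change and the raw and adjusted p-value of every listed gene, and in the siRNA table also a linear fold (ratio) and the mean normalized signal. Per the submitters' processing notes the build is mm10 and the test DESeq2; the sources used here do not give the aligner, counting tool, annotation or versions. The tables list only genes with p under 0.05 (707 and 2150), of which 127 and 191 have no adjusted p. The adjusted p imply 12592 and 13102 tested genes.

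Whole-library size factors were solved from the deposited log2 fold changes (plasmid; 489 genes above 200 counts in each library, largest log2 error 0.000652) and from the deposited mean signal (siRNA). They lay between 0.94 and 1.05. Fold changes and SE come from edgeR 4.0.16 (R 4.3.3, quasi-likelihood, filterByExpr with a minimum count of 10), and Benjamini-Hochberg adjustment used the implied number of tests. The dispersion rests on listed genes. The 9 and 38 called members passed that filter on low counts, and the 4 and 5 listed members without an adjusted p did not. The procedure was also run on simulated counts with a fixed dispersion and adjustment over the listed genes alone. These settings differ from those of the refit, and the outcome is not reported here.

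Members, lists and tests were chosen with earlier results of these data known. Values in every library are given for members called in both contrasts, for up to 3 called members per role and contrast with the smallest adjusted p, and for the largest change in each direction whose higher group averaged at least 50; those of Itgb1 and Timp1 were added after they were seen. Of each further list the 2 called genes with the smallest adjusted p per direction are named, except for some that are not reported here. Replicate libraries were distinct (chi-square between replicate counts 3.89 to 25.7 per degree of freedom). Alternatives were a stricter threshold, TMM and median of ratios over listed genes, no filter, DESeq2 1.42.0, leaving out each library and a replicate block.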

Additional observations from a re-analysis of the deposited data

How the results depend on the processing

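No called member changed sign in any alternative run here, in either contrast. At an adjusted p under 0.01 the authors' deposited tables called 6 plasmid and 28 siRNA members, against 9 and 38. The edgeR refit passed 8 and 35. Without the filter it passed 8 and 37, and DESeq2 with the recovered size factors passed 9 and 39. With scaling over the listed genes the refit passed 5 plasmid members, 1 higher and 4 lower, against 5 higher and 3 lower with the recovered factors; this held for TMM and for median of ratios, and of all calls 23.1% and 22.0% were then higher, against 75.6%. In the siRNA contrast those scalings passed 14 higher and 15 lower, and 13 and 15, against 21 and 14. Leaving out 1 library left between 5 (without GFP-DUSP6 replicate 3) and 9 plasmid members and between 19 (without siDUSP6 replicate 2) and 32 siRNA members; 4 of 8 and 19 of 35 passed without every library in turn. Such fits also have less power. With the replicate number as a block, 9 and 38 members passed. Same-numbered libraries deviated together only in part (correlations of 0.35, 0.37 and 0.01 in the plasmid and 0.37, 0.09 and 0.18 in the siRNA contrast), so the numbers were not taken as pairs. Genes with few reads, such as Cldn4, Nectin4, Col5a1 and Col4a3, have the widest errors.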
